A study of Homo sapiens with 39 samples.

Results

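U2AF1 clusters at start codons are the stretches of RNA that crosslinked to the splicing factor U2AF1 and that the submitters' annotation placed on a start codon. Every cluster annotated as start codon in any of the 3 deposited cluster lists was taken, which gave 1560 of 148336 clusters. S34F U2AF1 from cytoplasm contributed 319 of 28828 clusters, WT U2AF1 from cytoplasm 327 of 26613 and WT U2AF1 from chromatin 914 of 92895. The clusters carried the symbols of 1322 genes out of 11376 genes with a cluster of any kind.

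Flp-In-293 cells, a human embryonic kidney line, were used for PAR-CLIP and expressed FLAG-HA tagged S34F mutant or WT U2AF1. S34F was taken from the cytoplasmic fraction and WT from the cytoplasmic and the chromatin fraction. Each list was made from both replicates (A and B) together, so it counts as 1 sample and the lists carry no replicate error. The genes were then followed in human bronchial epithelial cell (HBEC) lines named S34F, FS (frame shift) and WT for their U2AF1, with 1 library per line and group: U2AF1 immunoprecipitates (IP), IgG precipitates and Cytosol RNA, and 8 fractions of a polysome gradient. Nothing in the labels says whether a line is 1 clone, and no line was prepared in more than 1 culture that the labels name. The 3 lines are the only replication, so p-values measure how much group differences vary between lines that also differ in U2AF1. A constant difference between lines was taken out by the fit. The spread was estimated from all precipitate and Cytosol libraries together, and from all 8 gradient fractions together. It is thus not that of the compared libraries alone.

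U2AF1 is the small subunit of the U2 auxiliary factor. In the nucleus it reads the AG at the end of an intron while its partner U2AF2 binds the pyrimidine tract before it, and S34F lies in a zinc finger of U2AF1 and is a recurrent change in myeloid and lung cancers. At a start codon the scanning small ribosomal subunit meets the initiator tRNA, and start codons in the context named after Kozak, with a purine 3 bases before the ATG and a G directly after it, are used most efficiently.

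PAR-CLIP labels RNA with a photoreactive nucleoside, and crosslinked uridines read as T-to-C conversions. The sequences below show what the clusters look like around the start triplet. Each is cut from the deposited cluster sequence, in the sense of the RNA, with the only ATG of that cluster in capitals; the ATG was not checked against a gene model, and the genome build is not given in the sources used here. The first set holds clusters with many reads in a cytoplasmic list or in both.

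TMPO (S34F cytoplasm, chr12:98909628-98909657, plus strand): gcttcgcagatccccgagATGccggagttc
CHURC1 (S34F cytoplasm, chr14:65381206-65381225, plus strand): gcgtcgcgATGtgtggcgac
NEDD1 (S34F cytoplasm, chr12:97301372-97301393, plus strand): cttttggcaggtacttggATGc
RBM5 (WT cytoplasm, chr3:50127850-50127879, plus strand): taaatcttcagtgggacaATGggttcagac
FKBP8 (WT cytoplasm, chr19:18652769-18652798, minus strand): tcctgtccccccagcagcATGgcatcgtgt
CCNB1 (WT cytoplasm, chr5:68463072-68463101, plus strand): cctggtgaagaggaagccATGgcgctccga
CSNK1E (WT cytoplasm, chr22:38710151-38710170, minus strand): agtgagccATGgagctacgt
SRSF7 (WT cytoplasm, chr2:38976793-38976815, minus strand): tatcgacaggcATGcctcggaga

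A purine stands 3 bases before the triplet in all of these but NEDD1, and a G follows it in RBM5, FKBP8, CCNB1 and CSNK1E. The second set holds chromatin clusters in which an AG stands directly before the ATG and a run rich in C and T before that; these were picked after their sequences were seen, to show this arrangement. DHX9, with the most reads of all start-codon clusters, is printed beside them and ends in tc before its ATG.

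PSMC5 (WT chromatin, chr17:61905483-61905509, plus strand): actctgtgtcttcagATGgagctggag
HSP90AB1 (WT chromatin, chr6:44216351-44216378, plus strand): gagatttttattttagATGcctgaggaa
NHEJ1 (WT chromatin, chr2:220023073-220023096, minus strand): acttttttgcagATGgaagaactg
UBE2J2 (WT chromatin, chr1:1203361-1203390, minus strand): agacgttgcttttaacagATGagcagcacc
DHX9 (WT chromatin, chr1:182811684-182811710, plus strand): gaagaagacacttgaatcATGggtgac

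The letters bear out the annotation in most clusters. An ATG was present in 94.4% of the start-codon clusters of S34F cytoplasm, in 87.8% of those of WT cytoplasm and in 96.8% of those of WT chromatin. In clusters annotated as coding the shares were 46.9%, 44.6% and 52.9% in the same order of lists. Annotations came from HAVANA for 247, 265 and 649 of the clusters and from ENSEMBL for the other ones, and a start codon may be that of any annotated transcript of the gene.

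Start-codon clusters made up a like share of the cytoplasmic lists from S34F and WT U2AF1. The share was 1.11% of all clusters in S34F cytoplasm (exact binomial 95% interval 0.989 to 1.23) and 1.23% in WT cytoplasm (1.1 to 1.37), and the intervals overlap. In WT chromatin it was 0.984% (0.921 to 1.05), and that interval lies below that of WT cytoplasm. With 1 list per condition the intervals cover counting error only, and no test was made. Among reads in clusters, start-codon clusters took 1.04% in S34F cytoplasm, 1.45% in WT cytoplasm and 1.55% in WT chromatin, so that chromatin ranks last by number of clusters and first by reads.

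Cytoplasmic start-codon clusters lay nearer to the 5′ ends of their genes than chromatin ones. The distance from the gene's 5′ end, as the RIP table places it, had a median of 402 bases in S34F cytoplasm (313 clusters placed), 390 bases in WT cytoplasm (318 placed) and 7204 bases in WT chromatin (902 placed). Within 300 bases of the 5′ end lay 44.7% of the clusters in S34F cytoplasm, 44.3% in WT cytoplasm and 13.1% in WT chromatin. The upper quartiles of the distance were 6121, 4948 and 21580 bases in the same lists. Distances are genomic and count introns. Clusters in 5′ UTRs were split alike, with 61.8%, 63.9% and 36% within 300 bases. Among coding clusters, 2.32%, 3.2% and 0.693% lay that near in the same lists.

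**Figure D1:**
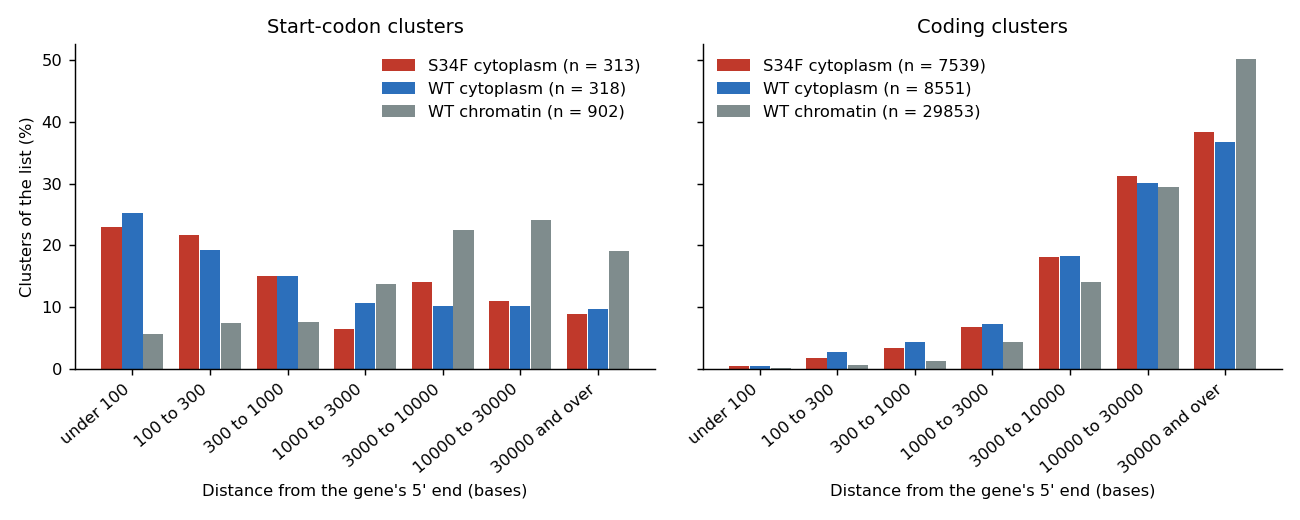
Share of the clusters of each list (vertical axis, %) in bins of genomic distance from the gene's 5′ end (horizontal axis, bases), for start-codon clusters on the left and coding clusters on the right; bars are S34F cytoplasm, WT cytoplasm and WT chromatin. Start-codon clusters of both cytoplasmic lists are most frequent below 300 bases, while those of WT chromatin are most frequent beyond 3000 bases.

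Reads and conversions also set chromatin apart. A start-codon cluster held a median of 13 reads in S34F cytoplasm, 16 in WT cytoplasm and 42 in WT chromatin, and the whole lists differ in the same direction: coding clusters held medians of 11, 13 and 29 reads. The deposited T-to-C fraction had a median of 0.625 in S34F cytoplasm, 0.56 in WT cytoplasm and 0.96 in WT chromatin. Its middle range was 0.441 to 0.833 for S34F cytoplasm, 0.391 to 0.778 for WT cytoplasm and 0.781 to 1 for WT chromatin, so the cytoplasmic lists overlap each other widely and the chromatin range lies almost wholly above them. Coding clusters had medians of 0.667, 0.636 and 1 in the same lists.

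The sequence around the triplet followed the Kozak pattern most often in the cytoplasm. Among clusters with a single ATG and enough sequence on both sides, a purine stood 3 bases before the ATG in 85.1% of 174 in S34F cytoplasm (78.9 to 90), in 82.2% of 185 in WT cytoplasm (75.9 to 87.4) and in 75.3% of 470 in WT chromatin (71.2 to 79.2). A G followed the ATG in 54% of those in S34F cytoplasm, 55.7% in WT cytoplasm and 44.3% in WT chromatin. Both letters stood together in 48.9% in S34F cytoplasm (41.2 to 56.5), 48.6% in WT cytoplasm (41.2 to 56.1) and 34% in WT chromatin (29.8 to 38.5). The S34F and WT cytoplasmic lists were close to each other on all 3 measures, and the chromatin interval for both letters together ended below those of the cytoplasm. An ATG inside a coding cluster, which is seldom a start codon, had both letters in 17.4%, 19.5% and 16.1% of cases in the same lists.

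**Figure D2:**
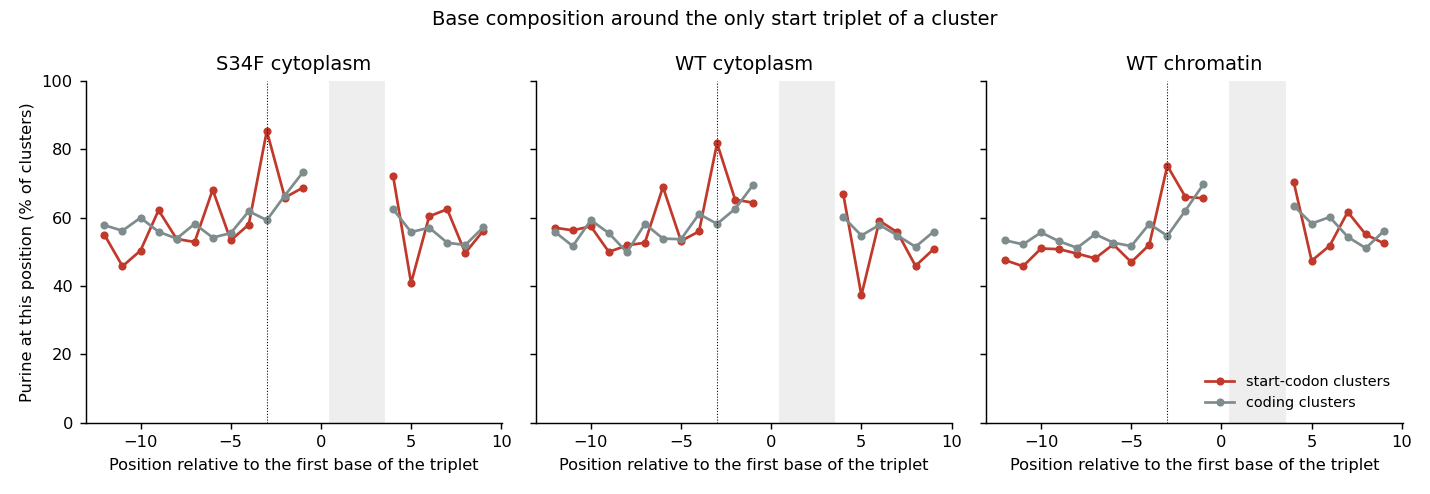
Share of clusters with a purine at each position (vertical axis, %) against position relative to the first base of the only start triplet of a cluster (horizontal axis; the grey band is the triplet and the dotted line marks position -3), in a panel for each list. Start-codon clusters (red) are highest at position -3 in all 3 lists, while coding clusters (grey) are highest at position -1.

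The letters that U2AF1 reads at an intron end were looked for in the same sequences. The base was again clusters with a single ATG and enough sequence on both sides. AG stood directly before the ATG in 29.3% of 174 start-codon clusters of S34F cytoplasm (22.7 to 36.7). It did so in 23.8% of 185 of WT cytoplasm (17.8 to 30.6) and in 26% of 470 of WT chromatin (22 to 30.2). For an ATG in coding clusters the shares were 19.9%, 17.6% and 21%, and for one in clusters annotated as crossing from an intron into a coding exon they were 31.8%, 29.9% and 28%. A longer pattern, CAG or TAG with at least 7 C or T among the 10 bases before it, was counted on the sense strand in clusters of 25 to 40 bases. It was present in 5.67% of 141 start-codon clusters of S34F cytoplasm (2.48 to 10.9), in 6.63% of 196 of WT cytoplasm (3.58 to 11.1) and in 15% of 412 of WT chromatin (11.7 to 18.9). Intron-to-coding clusters held it in 48.6%, 45% and 43.4%, coding clusters in 8.99%, 7.93% and 9.22%, and 5′ UTR clusters in 9.77%, 9.03% and 16.7%. At 25 to 40 bases the start-codon share in the cytoplasm was no higher than that of coding clusters, while in chromatin its interval lay above that of coding clusters and held the share of 5′ UTR clusters. Over clusters of any length the start-codon shares were 8.78%, 9.79% and 23.7%, coding ones 8.65%, 8.66% and 11.1%, and 5′ UTR ones 9.68%, 11.3% and 15.5%, and start-codon clusters are longer. A match is a string of letters and not a splice site shown to be used.

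The clusters with the most reads in S34F cytoplasm lay on HNRNPH1 and on mitochondrial transcripts. HNRNPH1, a splicing regulator, had 379 reads in S34F cytoplasm in a cluster of 179 bases, DROSHA, the nuclear RNase that starts microRNA processing, had 182, and the kinetochore protein gene ZNF207 had 166. MT-ND6, MT-ATP6 and MT-ND4L, which encode subunits of the respiratory chain and of ATP synthase, had 216, 203 and 173 reads in S34F cytoplasm. These are the only mitochondrial clusters among the 1560. In WT cytoplasm the first 6 were CUL4B, a ubiquitin ligase scaffold, with 273 reads, FKBP8, an immunophilin of the outer mitochondrial membrane, with 183, CNIH4 with 148, the mitotic cyclin gene CCNB1 with 122, the ribosomal protein gene RPL24 with 119 and the kinase gene CSNK1E with 100. In WT chromatin DHX9, an RNA helicase, had 2385 reads, followed by UBE2J2 with 1566, HNRNPH1 with 1353, HNRNPUL1 with 1287, ZNF507 with 1031 and the replicative helicase subunit gene MCM7 with 957. HNRNPH1 was among the first 6 of S34F cytoplasm and of WT chromatin. Its clusters in these lists lie apart: the first spans chr5:179049989-179050167 and the second chr5:179044819-179044921.

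The T-to-C fraction of these clusters differed widely. In WT cytoplasm CUL4B stood at 0.103, FKBP8 at 0.126 and CNIH4 at 0.263, all below the list's lower quartile. DROSHA at 0.155 and ZNF207 at 0.187 were below that of S34F cytoplasm. In WT chromatin DHX9 stood at 0.957 and UBE2J2 at 0.989.

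Most start-codon clusters met no cluster of another list. Of the 319 in S34F cytoplasm, 57 (17.9%, 13.8 to 22.5) overlapped a cluster of any class in WT cytoplasm by at least 1 base, and of the 327 in WT cytoplasm, 47 (14.4%, 10.8 to 18.7) overlapped one in S34F cytoplasm. Coding clusters met their counterpart list in 12.8% and 11.6%. Of the start-codon clusters of S34F cytoplasm, 92 (28.8%, 23.9 to 34.1) overlapped a cluster of WT chromatin, against 37.6% of coding clusters. Of the start-codon clusters of WT cytoplasm, 63 (19.3%, 15.1 to 24) overlapped a cluster of WT chromatin, against 30.5% of coding clusters, 35.3% of stop-codon clusters and 9.03% of clusters in 5′ UTRs. In start-codon genes, 50 were shared by the cytoplasmic lists, which is 15.8% of those of S34F and 15.4% of those of WT. S34F cytoplasm and WT chromatin shared 82 genes, and WT cytoplasm and WT chromatin shared 67, 20.7% of the cytoplasmic and 7.78% of the chromatin ones. All 3 lists shared 20 genes, while 204 genes occurred only in S34F cytoplasm, 227 only in WT cytoplasm and 732 only in WT chromatin. A cluster missing from a list may be one with too few reads to be called, since the lowest count of a start-codon cluster was 4 reads in each cytoplasmic list and 5 in chromatin.

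In 8 genes a start-codon cluster of WT cytoplasm overlapped both one of S34F cytoplasm and one of WT chromatin. RUVBL1, an ATPase of chromatin remodelling complexes, had 27 reads in S34F cytoplasm, 33 in WT cytoplasm and 76 in WT chromatin. TMPO, a protein of the nuclear lamina, had 61, 67 and 24 reads in the same lists, and MIPOL1 had 48, 23 and 31. RBM5, a splicing regulator, had 22, 49 and 43 reads. SLC38A2, an amino acid transporter, had 48, 22 and 416 reads, COX6B1, a subunit of cytochrome c oxidase, 21, 32 and 46, and SARS2, the mitochondrial seryl-tRNA synthetase, 17, 14 and 6. SRSF7, a splicing factor of the SR family, had 5, 83 and 156. The lists hold 658110 reads in clusters in S34F cytoplasm, 526075 in WT cytoplasm and 4723555 in WT chromatin, so read numbers of 1 gene are not to be compared between lists unscaled.

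Read numbers of the clusters found in both cytoplasmic lists could be set side by side. There were 38 overlapping pairs of start-codon clusters. Scaled to the reads of each list, the ratio of S34F to WT had a median of 0.779 and ran between 0.0482 and 4.21. It was above 1 in 14 pairs. The exact binomial interval of the ratio lay above 1 in 5 pairs and below 1 in 9. Overlapping clusters of other classes were not counted in this way, so these counts do not set start-codon clusters apart. All start-codon clusters took 1.04% of the reads in S34F cytoplasm and 1.45% in WT cytoplasm. The lean below 1 was thus also present in the start-codon class as a whole. NEDD1, a protein that anchors tubulin rings at the centrosome, had 58 reads in S34F and 11 in WT (ratio 4.21, interval 2.19 to 8.91), GPATCH4 had 27 and 6 (3.6, 1.45 to 10.7), and HMGB2, a chromatin protein, had 60 and 15 (3.2, 1.79 to 6.06). CHURC1 had 61 reads in S34F and 17 in WT (2.87, 1.65 to 5.24), and SLC38A2 had 48 and 22 (1.74, 1.03 to 3.03). At the other end SRSF7 had 5 reads in S34F and 83 in WT (0.0482, 0.0152 to 0.117), and FKBP8 had 20 and 183 (0.0874, 0.0521 to 0.139). MRPS24, of the mitochondrial ribosome, had 18 and 43 (0.335, 0.182 to 0.593), MARS, the cytosolic methionyl-tRNA synthetase, 25 and 58 (0.345, 0.207 to 0.56), and RBM5 22 and 49 (0.359, 0.207 to 0.605). Intervals cover counting error in 1 pooled list each, so these ratios compare the lists and not S34F with WT U2AF1 over replicates. The T-to-C fraction was higher in S34F in 20 of the 38 pairs.

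**Figure D3:**
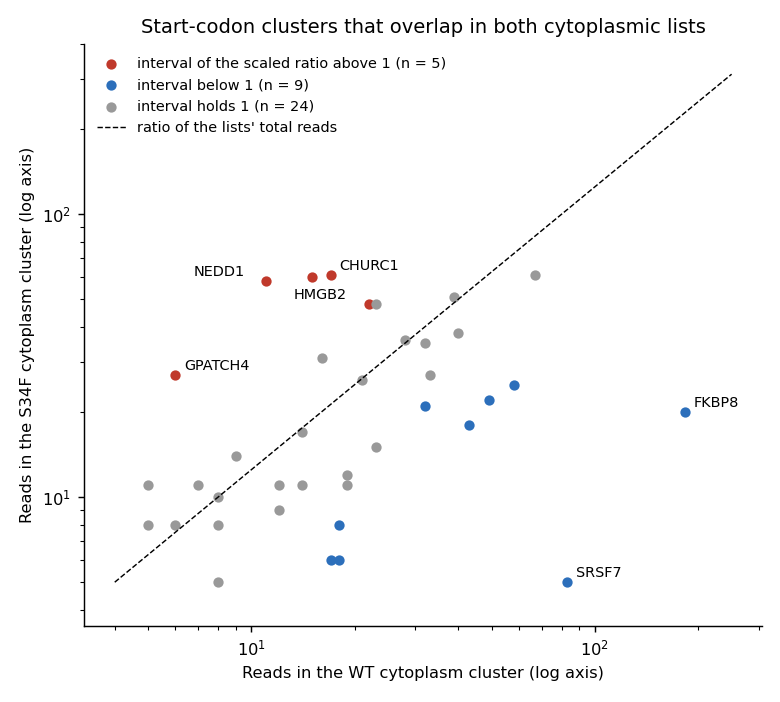
Reads of the S34F cytoplasm cluster (vertical axis, log) against reads of the WT cytoplasm cluster (horizontal axis, log) for the 38 start-codon clusters that overlap in both lists; colours give whether the 95% interval of the scaled ratio lies above 1, below 1 or holds 1, and the dashed line is the ratio of the lists' total reads. FKBP8 and SRSF7 lie farthest below the line, and NEDD1 and GPATCH4 farthest above it.

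Genes with a start-codon cluster also carried other clusters. In S34F cytoplasm 209 of 316 (66.1%) had a coding cluster, in WT cytoplasm 215 of 324 (66.4%) and in WT chromatin 753 of 861 (87.5%), where 51.9%, 55.7% and 64.9% of all genes in those lists did. A stop-codon cluster was present in 8.54%, 6.79% and 21.8% of the start-codon genes and in 3.41%, 3.28% and 10.3% of all genes of the lists.

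The HBEC libraries held 2582162 to 29769920 counts in the precipitates and Cytosol and 2440110 to 13367474 counts in the gradient fractions, and every IP and IgG library was shallower than every Cytosol library. Airway basal markers summed to 9781 to 47391 CPM, counts scaled to the library total, in the precipitates and Cytosol and 4163 to 11357 CPM in the gradient, while ciliated, secretory and mesenchymal markers reached at most 21.7, 14.3 and 40.6 CPM in the precipitates and Cytosol. Leukocyte markers summed to at most 167 CPM there, with 2 of 3 at 0 in all 9 libraries.

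Few genes with a start-codon cluster differed between U2AF1 and control precipitates. The comparison of IP with IgG asks which RNAs the U2AF1 antibody brought down beyond a control antibody. Of 1204 start-codon genes tested, 5 were higher in IP (0.415%) and 5 lower (0.415%) by edgeR's quasi-likelihood test with the line as a block, at an adjusted p under 0.05. Over all 11612 genes tested, 26 were higher (0.224%) and 130 lower (1.12%). The share higher was thus above and the share lower below the background, on 10 calls and with no test of the difference. The median log2 fold change was 0.10 for start-codon genes and 0.03 for all genes. By line the start-codon median was 0.02 in S34F, 0.11 in FS and 0.16 in WT, where that of all genes was -0.01, 0.01 and 0.10. Genes with a start-codon cluster in S34F cytoplasm had a median of 0.05, those in WT cytoplasm 0.10 and those in WT chromatin 0.12. Genes with a stop-codon cluster had a median of 0.08, with 0.424% higher and 0.339% lower. Genes with a cytoplasmic cluster but none at a start codon had a median of 0.11, with 0.353% higher and 0.942% lower. The contrast with all genes was thus not particular to start-codon genes.

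The start-codon genes higher in IP included a ribosomal protein gene. RPS6, of the small ribosomal subunit, stood at 3154, 3009 and 3094 CPM in IP of S34F, FS and WT, against 1971, 1486 and 917 CPM in IgG and 1450, 1315 and 1100 CPM in Cytosol. All 3 IP libraries lay above all IgG and Cytosol libraries. The log2 difference to IgG was 0.97 ± 0.16 (SE; edgeR adjusted p = 0.00707) and to Cytosol 1.25 ± 0.16 (edgeR adjusted p = 0.00036). HIPK3, a nuclear protein kinase, had 179, 154 and 274 CPM in IP and 81.7, 42.2 and 70.4 CPM in IgG of S34F, FS and WT. CCNI, an atypical cyclin, had 625, 537 and 894 CPM in IP and 247, 206 and 408 CPM in IgG. In both the IP and IgG groups did not overlap. Their log2 differences were 1.49 ± 0.29 for HIPK3 (edgeR adjusted p = 0.018) and 1.10 ± 0.22 for CCNI (edgeR adjusted p = 0.0227). SCRN1 (1.27 ± 0.26, edgeR adjusted p = 0.0209) and ARPC1A, a subunit of the actin-nucleating ARP2/3 complex (0.99 ± 0.21, edgeR adjusted p = 0.0286), complete the group. HIPK3 and CCNI have a start-codon cluster in cytoplasm, with 5 reads in WT and 16 in S34F, and RPS6, SCRN1 and ARPC1A have theirs in chromatin. The RPS6 cluster held 10 reads, below the lower quartile of 22 for start-codon clusters of that list. Of 32 small-subunit ribosomal protein genes tested, 5 were higher in IP than in IgG, and 1 of them was a start-codon gene. Of 45 large-subunit genes 4 were higher, and 0 of them were start-codon genes.

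Among start-codon genes lower in IP than in IgG, GANAB and PIEZO1 moved most. GANAB, the catalytic subunit of endoplasmic reticulum glucosidase, had 153, 140 and 201 CPM in IP of S34F, FS and WT, 287, 653 and 929 CPM in IgG and 230, 261 and 263 CPM in Cytosol. PIEZO1, a mechanosensitive ion channel, had 79.4, 120 and 62.2 CPM in IP and 128, 471 and 389 CPM in IgG. In both, every IgG library was above every IP library. The log2 difference was -2.0 ± 0.28 for GANAB (edgeR adjusted p = 0.00167) and -2.0 ± 0.34 for PIEZO1 (edgeR adjusted p = 0.00818). PIEZO1 overlaps other genes on the opposite strand, CTU2 among them, and strand was not stated for the counting. SLC1A5, a glutamine transporter, had 404, 245 and 343 CPM in IP and 398, 971 and 953 CPM in IgG, and TMBIM6, a membrane protein of the endoplasmic reticulum, had 158, 136 and 175 CPM in IP and 170, 386 and 543 CPM in IgG. In line S34F both stood nearly level in IP and IgG. Their log2 differences were -1.35 ± 0.30 (edgeR adjusted p = 0.033) and -1.30 ± 0.30 (edgeR adjusted p = 0.0417).

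DONSON, a replication fork protein with 30 reads at its start codon in S34F cytoplasm, was high in both kinds of precipitate. It stood at 1575, 2585 and 2153 CPM in IP of S34F, FS and WT, at 2566, 3980 and 5992 CPM in IgG and at 138, 393 and 220 CPM in Cytosol. Every precipitate lay above every Cytosol library. The log2 difference was 3.13 ± 0.23 for IP against Cytosol (edgeR adjusted p = 1.93e-06), 4.26 ± 0.24 for IgG against Cytosol (edgeR adjusted p = 3.01e-08) and -1.13 ± 0.22 for IP against IgG (edgeR adjusted p = 0.0168). Without line WT the IP against IgG difference was -0.79 (edgeR adjusted p = 0.182).

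Of the 10 start-codon genes called for IP against IgG, 0 remained called in all 3 fits that left out a line. Without WT none passed by edgeR; the log2 differences there were 0.71 for RPS6 (edgeR adjusted p = 0.119) and -1.73 for GANAB (edgeR adjusted p = 0.0532). Without FS, HIPK3 was at 1.40 (edgeR adjusted p = 0.0976), CCNI at 1.05 (edgeR adjusted p = 0.0924), SLC1A5 at -0.93 (edgeR adjusted p = 0.24) and TMBIM6 at -1.10 (edgeR adjusted p = 0.231). Without S34F, SCRN1 (edgeR adjusted p = 0.082) and ARPC1A (edgeR adjusted p = 0.116) did not pass. By DESeq2 30 start-codon genes were higher (2.49%, against 1.81% of all genes) and 22 lower (1.83%, against 3.67%), and without the line as a block the counts by edgeR were 0 and 1, where GANAB was at -2.11 (edgeR adjusted p = 0.0227). At an unadjusted p under 0.05, the blocked edgeR fit had 96 higher (7.97%, against 5.72% of all genes) and 61 lower (5.07%, against 7.17%).

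Against Cytosol RNA, 5 start-codon genes were higher in IP and 1 was lower, of 1204 tested. Over all genes 57 were higher (0.491%) and 5 lower (0.0431%) by edgeR. DONSON and RPS6, described above, were among them. DCAKD, which has 49 reads at its start codon in chromatin, had 153, 264 and 218 CPM in IP, 231, 373 and 500 CPM in IgG and 57.9, 105 and 78 CPM in Cytosol of S34F, FS and WT (IP against Cytosol log2 1.38 ± 0.25, edgeR adjusted p = 0.0103). CCNI had 397, 216 and 300 CPM in Cytosol (1.13 ± 0.22, edgeR adjusted p = 0.0243). RPSA, of the small ribosomal subunit, had 4875, 4503 and 4478 CPM in IP and 3504, 2593 and 2706 CPM in Cytosol (0.64 ± 0.12, edgeR adjusted p = 0.0185). In DCAKD, CCNI and RPSA the IP and Cytosol libraries did not overlap. Of all ribosomal protein genes tested, 7 of 32 of the small subunit were higher in IP than in Cytosol, 2 of them start-codon genes. In the large subunit 5 of 45 were higher, and 0 of them were start-codon genes. DONSON and RPS6 remained called without any 1 line. Without the line as a block only DONSON of the genes named here passed by edgeR, and RPS6 (edgeR adjusted p = 0.0793), DCAKD (0.25), CCNI (0.369) and RPSA (0.724) did not. CCNI and RPSA did not without FS (edgeR adjusted p = 0.185 for CCNI and 0.402 for RPSA) or without WT (0.203 and 0.137), and DCAKD did not without FS (0.0525).

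IgG against Cytosol, a comparison with no U2AF1 antibody, called 3 start-codon genes higher and 0 lower by edgeR. The background over all genes was 77 higher (0.663%) and 2 lower (0.0172%). At an unadjusted p under 0.05, 36 start-codon genes were higher (2.99%, against 4.21% of all genes) and 38 lower (3.16%, against 3.1%), and DESeq2 called 10 higher (0.831%, against 1.72%) and 2 lower (0.166%, against 0.198%). The 3 genes were DONSON, DCAKD at 2.33 ± 0.26 (edgeR adjusted p = 3.34e-05) and GANAB at 1.35 ± 0.28 (edgeR adjusted p = 0.0297). GANAB did not pass without FS (edgeR adjusted p = 0.108) or without WT (edgeR adjusted p = 0.603). DONSON and DCAKD were thus higher than Cytosol in the control precipitate as well as in IP. The 3 comparisons share their libraries, so their calls are not independent of each other.

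**Figure D4:**
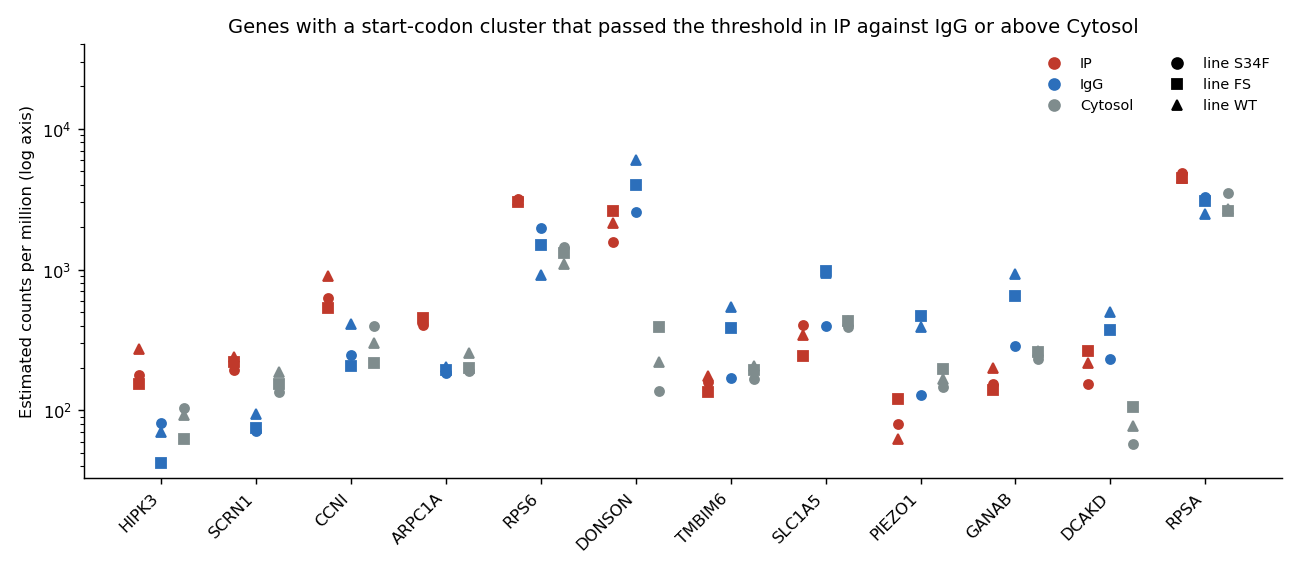
Level of the 12 start-codon genes called in IP against IgG, or called higher in a comparison with Cytosol (vertical axis, CPM from estimated counts, log), with IP, IgG and Cytosol side by side and 1 point per line (circle S34F, square FS, triangle WT). RPS6 sits at 3009 to 3154 CPM in IP, above all IgG and Cytosol points, and DONSON is above Cytosol in IP and IgG alike.

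On the polysome gradient the start-codon genes lay toward heavy polysomes. The 8-10 fraction holds RNA with the most ribosomes of the gradient, and monosomal RNA carries 1 ribosome. A short coding sequence has room for fewer ribosomes, and coding length was not taken into account. Of 1269 start-codon genes tested, 593 (46.7%) were higher and 111 (8.75%) lower with 8-10 ribosomes than in monosomes by edgeR's quasi-likelihood test. Over all 15945 genes tested 4518 were higher (28.3%) and 3439 lower (21.6%). The median log2 difference was 0.73 for start-codon genes and 0.08 for all genes. Genes of S34F cytoplasm had a median of 0.82 with 153 of 302 higher, those of WT cytoplasm 0.84 with 162 of 313 higher, and those of WT chromatin 0.71 with 376 of 827 higher.

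The same lean appeared in genes with other clusters. Genes with a stop-codon cluster had a median of 0.76 with 47.9% higher, and genes with a cytoplasmic cluster of another kind but none at a start codon had 0.51 with 38.4% higher. The mean level over the monosome and 8-10 fractions had a median of 40.3 CPM in start-codon genes, 43.2 CPM in stop-codon genes, 35.1 CPM in genes with another cytoplasmic cluster and 19.8 CPM in all genes tested. The part of level or of coding length in the difference was not tested. Without FS 55 and without S34F 65 start-codon genes were lower, and 82 without WT. The number higher was 424 to 513 over these fits, and shares over all genes in them are not given here.

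By line, the median log2 difference of the start-codon genes was 1.01 in S34F, 0.61 in FS and 0.41 in WT, where the median of all genes was 0.01, -0.01 and 0.05. With 1 gradient per line this order has no replicate error.

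The start-codon genes with cytoplasmic clusters that leaned most to 8-10 ribosomes were a mixed group. NDUFA12, a subunit of respiratory complex I, had 67.4, 80.5 and 65.8 CPM with 8-10 ribosomes and 8.07, 8.2 and 13.7 CPM in monosomes of S34F, FS and WT (log2 2.96 ± 0.47, edgeR adjusted p = 6.18e-05). HTATSF1, a spliceosome-associated protein, had 17.8, 19.1 and 7.03 CPM with 8-10 ribosomes against 2.02, 2.13 and 1.71 CPM in monosomes (2.93 ± 0.42, edgeR adjusted p = 2.69e-05). NCL, nucleolin, had 160, 93.1 and 51.5 CPM against 21.4, 20.4 and 14.2 CPM (2.49 ± 0.33, edgeR adjusted p = 1.56e-05). In all 3 genes the fractions did not overlap; small nucleolar RNA genes lie within NCL. REEP5 (2.42 ± 0.38, edgeR adjusted p = 5.45e-05), TMBIM6 (2.40 ± 0.33, edgeR adjusted p = 1.83e-05) and TM9SF3 (2.37 ± 0.32, edgeR adjusted p = 1.83e-05), all genes of membrane proteins, follow. REEP5 overlaps SRP19 on the other strand.

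At the other end, COCH was at or near 0 with 8-10 ribosomes, with 0.192, 0 and 0.398 CPM in S34F, FS and WT, against 2.02, 3.34 and 1.94 CPM in monosomes (-3.63 ± 1.09, edgeR adjusted p = 0.00831). The difference rests on 0 to 3 counts per library in that fraction, and the call was lost without FS (-2.62) and without S34F (-3.83). SCMH1, a polycomb protein, had 16.2, 12.9 and 19.5 CPM against 84.4, 162 and 190 CPM (-3.02 ± 0.34, edgeR adjusted p = 3.55e-06). The transcription factor gene MAZ had 124, 141 and 197 CPM against 958, 770 and 1909 CPM (-2.73 ± 0.39, edgeR adjusted p = 2.29e-05). In both the fractions were far apart in every line. By the spans in the RIP table, MAZ overlaps 12 other genes, on both strands, and SCMH1 overlaps 2. Only whole spans were compared and not exons, so whether reads are shared is not known. RPS12, of the small ribosomal subunit, had 151, 57.7 and 76.7 CPM against 731, 621 and 495 CPM (-2.66 ± 0.44, edgeR adjusted p = 8.21e-05); small nucleolar RNA genes lie within it. TMEM99 (-2.23 ± 0.42, edgeR adjusted p = 0.000209) overlaps KRT10 and BCDIN3D (-1.98 ± 0.43, edgeR adjusted p = 0.000642) overlaps its antisense gene, so reads of the partners may be mixed.

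Proteasome, hnRNP and SR genes with a start-codon cluster were mostly higher with 8-10 ribosomes. Proteasome subunits had 9 start-codon genes, all 9 higher, as were the other 22 of 22 subunits tested; the base subunit gene PSMC5, whose chromatin cluster is printed above, was at 1.67 ± 0.32 (edgeR adjusted p = 0.000255) and the core subunit gene PSMA4 at 2.59 ± 0.45 (edgeR adjusted p = 0.000108). All 8 start-codon genes of the hnRNP proteins, which package and process nuclear RNA, were higher, beside 9 of the 12 other genes in the list. HNRNPD was at 3.32 ± 0.36 (edgeR adjusted p = 1.67e-06) and HNRNPH1 at 0.81 ± 0.30 (edgeR adjusted p = 0.0271), whose call was lost without FS (0.90), without S34F (0.53) and without the line as a block (0.83). Of SR proteins 4 of 5 start-codon genes were higher, beside 2 of 8 other ones, with SRSF7 at 1.71 ± 0.28 (edgeR adjusted p = 8.03e-05).

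Ribosomal protein genes went the other way. Of the small subunit 4 of 5 start-codon genes were lower with 8-10 ribosomes, beside 14 of 27 other ones, and of the large subunit 3 of 6, beside 19 of 40. RPSA was at -2.53 ± 0.35 (edgeR adjusted p = 1.87e-05) and RPL13 at -1.19 ± 0.40 (edgeR adjusted p = 0.0177). The call of RPL13 was lost without FS (-1.14), without S34F (-0.87) and without the block (-1.26), and small nucleolar RNA genes lie within RPSA. RPL24, among the strongest start-codon clusters of WT cytoplasm, was at 0.28 ± 0.35 (edgeR adjusted p = 0.495).

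Translation and splicing factors were divided. Of 12 initiation factor genes with a start-codon cluster 5 were higher, beside 18 higher and 6 lower of 31 other ones, with EIF3A, the scaffold of eIF3, at 2.43 ± 0.31 (edgeR adjusted p = 8.77e-06), EIF4G1, the scaffold of the cap complex, at 1.66 ± 0.32 (edgeR adjusted p = 0.000294), and EIF1, which guards start-codon choice, at 0.23 ± 0.29 (edgeR adjusted p = 0.517; -0.01 without WT). Of 5 start-codon genes listed as elongation and termination factors 3 were higher, EEF1E1 at 2.24, EIF5A at 1.75 and HBS1L at 1.38. EEF1D, at -0.46, was not called. EEF1B2 was lower at -1.04 ± 0.31 (edgeR adjusted p = 0.00839, and not called without S34F, at -0.83). Of the other 10 in that list 3 were higher and 5 lower. The median was 1.38 for the 5 start-codon genes, which is the value of HBS1L, and -1.13 for the other ones. Of 8 genes of 3′ splice site factors 4 were higher, beside 7 of 12 other ones. Whether start-codon genes differ from the rest of a list was not tested. U2AF1 itself had a start-codon cluster in chromatin with 139 reads. The PAR-CLIP cells expressed tagged U2AF1, and whether these reads came from that transcript was not tested. On the HBEC gradient U2AF1 was at 1.73 ± 0.42 (edgeR adjusted p = 0.00192). NPM1, nucleophosmin, had no start-codon cluster in any list and was at 1.17 ± 0.34 (edgeR adjusted p = 0.00713; not called without S34F, at 0.62).

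The ribosome position of a gene, its mean ribosome number over the gradient weighted by CPM, was compared between lines without a test, as each line has 1 gradient. Among 476 start-codon genes with a cytoplasmic cluster and at least 500 counts per gradient, the median position was 5.22 in S34F, 4.91 in FS and 4.80 in WT. The median of the difference S34F minus WT was 0.278 ribosomes, with S34F above WT in 347 genes (72.9%), and of FS minus WT 0.134. Over all 9504 genes measured the median S34F minus WT was 0.079, with S34F above WT in 58.2%. Genes with a cluster in S34F cytoplasm had a median of 0.332, those with one in WT cytoplasm 0.257 and those with one in WT chromatin 0.365, so the difference was not limited to genes with cytoplasmic clusters. The excess over all genes was 0.200 ribosomes, and without the 8-10 fraction it was -0.006, so it rests on that fraction. Both differences share the WT gradient.

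The genes that differed most between the gradients show this fraction. HSP90B1, a chaperone of the endoplasmic reticulum, had a position of 7.16 in S34F, 5.31 in FS and 5.09 in WT, and 66.2% of its summed CPM lay with 8-10 ribosomes in S34F, against 32.3% in FS and 32.4% in WT. CSE1L, the export receptor of importin alpha, was at 6.14, 4.55 and 4.14 in the same lines, and GNL3, a nucleolar GTP-binding protein, at 6.21, 4.84 and 4.42. HSP90AA1, a cytosolic chaperone, was at 6.57, 5.03 and 4.82, and ERGIC2 at 5.89, 4.53 and 4.15. In all 5 genes FS lay closer to WT than to S34F, but they were picked by the largest S34F minus WT. A high S34F value is thus built into the choice. Lower in S34F were ATP5G2, a subunit of ATP synthase, at 4.54, 4.93 and 5.25, ARFGAP1 at 4.50, 4.79 and 5.18, FLOT2 at 5.46, 6.12 and 6.05, XRCC1, a DNA repair scaffold, at 4.59, 4.99 and 5.17, and DCAF15 at 4.50, 4.74 and 5.07. Of these lower genes, ARFGAP1 and DCAF15 had FS closer to S34F than to WT. NPM1 was at 5.82 in S34F, 4.58 in FS and 4.43 in WT.

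**Figure D5:**
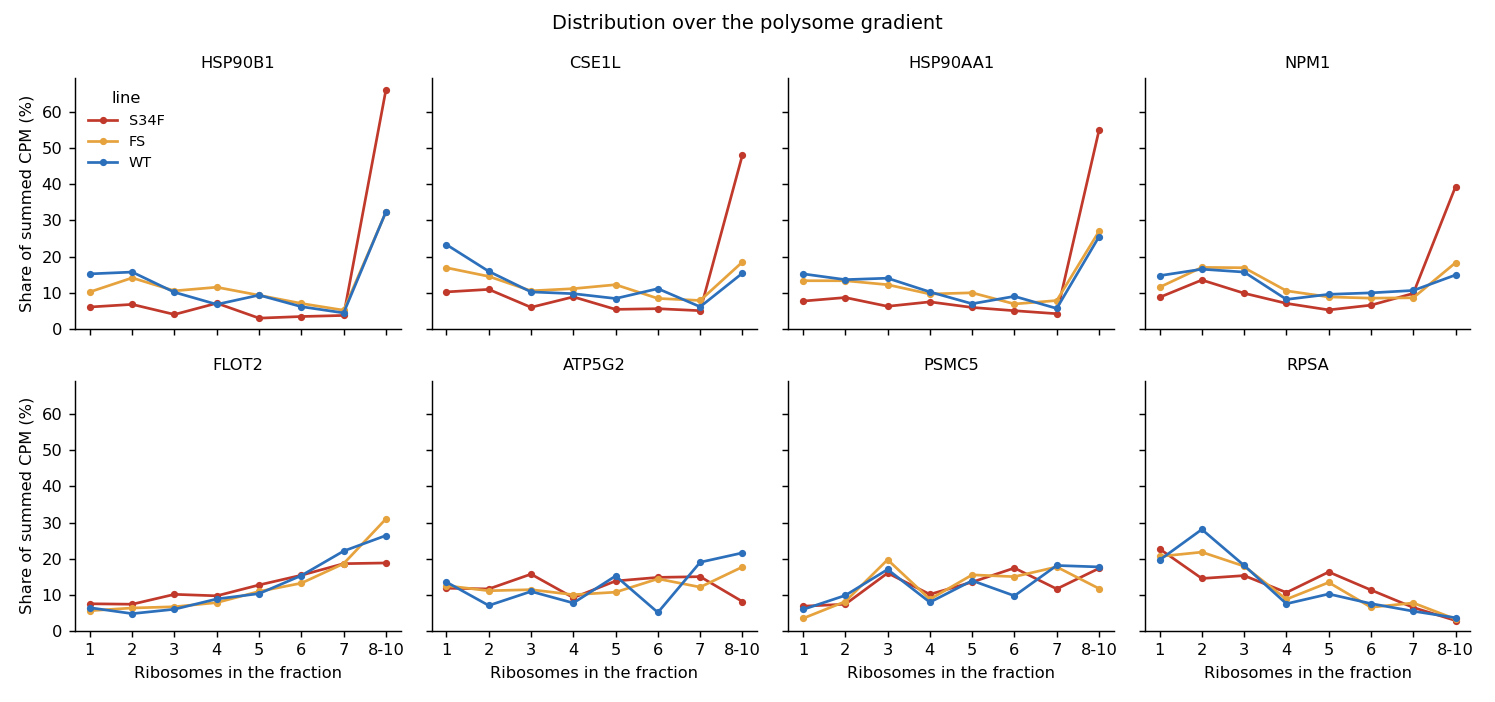
Share of a gene's CPM summed over the gradient (vertical axis, %) in each fraction by number of ribosomes (horizontal axis), with 1 line each for S34F, FS and WT, for 7 start-codon genes named in the text and for NPM1. HSP90B1, CSE1L, HSP90AA1 and NPM1 have a higher share with 8-10 ribosomes in S34F than in FS and WT, FLOT2 and ATP5G2 a lower one, and RPSA has its lowest share with 8-10 ribosomes in all lines.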

How the data were processed

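The deposited PAR-CLIP cluster lists give a read count, a T-to-C fraction, an annotation and a sequence per cluster; per the labels they were made from both replicates together, and the caller, build and annotation release are not given in the sources used here. For the RIP and polysome libraries the authors deposited estimated counts per gene (expected counts, since 26.3% and 57.5% of values are not whole), with TopHat named in the submitters' processing notes and no version. Counts were rounded, and repeated symbols (119 and 45) and names turned into dates (28) were dropped.

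Members were all clusters annotated as start codon; members and gene lists were chosen with earlier results of these data known. Shares carry exact (Clopper-Pearson) 95% intervals, which cover counting error only. Comparisons used edgeR 4.0.16 (R 4.3.3) with TMM scaling, filterByExpr, line as a block and the quasi-likelihood test with Benjamini-Hochberg adjustment at 0.05 over all genes; DESeq2 1.42.0 was an alternative. The SE is the log2 difference divided by the square root of F. The block is the HBEC line that the labels give to each library; deviations of same-line libraries correlated with a median of 0.0792 over 9 pairs in the RIP set and 0.423 over 84 in the gradient. The fit was tested on simulated data. CPM are counts over library totals without TMM scaling. In the ribosome position the 8-10 fraction counts as 9. Named genes were the 6 clusters with most reads per list, clusters overlapping in all lists, the members called in each RIP comparison, the 6 highest and lowest called cytoplasmic members on the gradient, list members and NPM1, and the 5 highest and lowest by read ratio (at least 20 reads in a list) and by ribosome position. A gene called lower in IP than in Cytosol is not reported here.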

Additional observations from a re-analysis of the deposited data

How the results depend on the processing

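Start-codon shares moved with the choice of clusters. With at least 10 reads the share was 1.63% in S34F cytoplasm and 1.8% in WT cytoplasm, with at least 3 conversion positions 1.6%, 1.79% and 1.49% (WT chromatin last), and by reads 1.45% in WT cytoplasm and 1.55% in WT chromatin. The T-to-C median in clusters of at least 10 reads was 0.5 in S34F and 0.489 in WT cytoplasm. The excess in ribosome position was -0.006 without the 8-10 fraction and 0.136 with TMM-scaled CPM, against 0.200.

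Counts of start-codon genes are given as higher, then lower. For IP against IgG they were 5 and 5 as reported, 30 and 22 by DESeq2, 13 and 14 with no filter on low counts, 0 and 1 with no replicate block, 2 and 3 from the cytoplasmic lists alone, and 0 to 4 and 0 to 8 with a line left out; without genes with isolated zeros 11 were lower. For IP against Cytosol they were 5 and 1, then 10 and 4 by DESeq2, 8 and 3 with no filter, 1 and 0 with no block, 2 and 0 from the cytoplasmic lists, and 2 to 6 and 0 to 1 with a line left out. For IgG against Cytosol they were 3 and 0, then 10 and 2 by DESeq2, 10 and 1 with no filter, 1 higher from the cytoplasmic lists, and 2 to 8 and 0 to 1 with a line left out. For 8-10 ribosomes against monosomes they were 593 and 111, then 356 and 68 with no replicate block, 287 and 54 from the cytoplasmic lists, 61 lower with no filter, and 424 to 513 and 55 to 82 with a line left out. With no replicate block, 28.1% of start-codon genes were higher with 8-10 ribosomes and 5.36% lower, against 17.2% and 15.7% of all genes. The same setting called 0 genes higher and 32 lower over all genes for IP against IgG, and 36 and 0 for IP against Cytosol. For IP against Cytosol, DESeq2 called 0.831% of start-codon genes higher and 0.332% lower, against 0.766% and 0.456% of all genes. Shares over all genes are not given for the filter, isolated-zero, cytoplasmic-list and left-out-line settings. Those counts alone do not set start-codon genes apart from all genes. The cause of these shifts was not tested. Of the genes recomputed under these alternatives, EIF1 turned sign: with 1 line left out it ranged between -0.01 (without WT) and 0.53, and it was not called with all lines. Every IP and IgG library was shallower than every Cytosol library, and whether depth limited the calls was not tested. A single list per PAR-CLIP condition limits what could be seen. The clusters came from Flp-In-293 cells with tagged U2AF1, and the genes were followed in HBEC lines.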
